A study of Mus musculus with 18 samples.

Results

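The genes described here are the expressed members of the Zfp series of mouse zinc finger genes. They were chosen by symbol and by level: 384 of the 24485 gene symbols listed for each library had the form Zfp, a number and at most 1 letter, and 154 of these averaged at least 3 TPM, a level scaled to transcript length and to one library total, over the 18 libraries. Zfp36 and Zfp395 were left out by name, which left 152 members. Of the other matching symbols 230 were below the threshold, and 19 of the 384 were at 0 everywhere. The level over all libraries chose the members, so the levels are a description, and a gene that was high in only some groups could pass through those groups. In 93 members the mean was at least 3 TPM in each of the 6 groups, and in 59 it was lower in at least 1 group. A member that passed only through the groups where it was high had to differ, so the counts of changed members are descriptions.

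The RNA came from BMDMs, macrophages grown out of bone marrow in medium conditioned by L929 cells. The marrow donors were 3 male C57BL/6J mice aged 12 weeks with the genotype Il10-/-, which lack interleukin 10. All 6 groups carried this genotype, and each group held 3 libraries with replicate numbers. The same number was taken to mark the same mouse, which the titles do not state. Cells received (+)-JQ1 at 500 nM, IL-10 at 10 ng/mL or neither for 12 h, and then lipopolysaccharide (LPS) at 50 ng/mL or PBS for 4 h. The groups are called Unstimulated, JQ1, IL-10, LPS, LPS + JQ1 and LPS + IL-10. (+)-JQ1 blocks the bromodomains of BET proteins, which bind acetylated histones, and LPS is a component of the bacterial envelope that macrophages sense through a Toll-like receptor. The labels call the cells without pretreatment untreated, whereas the methods name a vehicle before LPS. No wild-type BMDMs were in these libraries.

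A zinc finger of the C2H2 kind is a short fold in which a pair of cysteines and a pair of histidines hold a zinc ion, and arrays of such fingers read DNA bases. Many Zfp proteins join the fingers to a KRAB box, which recruits the corepressor Trim28 and, through it, the histone methyltransferase Setdb1, and these proteins are best known for silencing retroviral elements. Others carry a SCAN domain, through which they pair with each other, or have fingers alone, and some Zfp symbols belong to RNA-binding proteins, ubiquitin ligases or cofactors rather than to DNA-binding repressors.

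Coding sequences were found for 140 of the 152 members in GENCODE vM1, on the mm9 build that the deposited values use. Among them 36 held a KRAB box pattern without a SCAN pattern, 3 held both, 4 held SCAN only, 85 had at least 2 fingers and neither pattern, and in 12 fewer than 2 fingers were found. The median was 9 fingers and the highest 36, and 52 members had at least 10. The 84 coding bases that begin with the first cysteine codon of 1 finger are shown for 3 members with different architectures that recur in the results, with the codons of the zinc-holding cysteines and histidines in capitals. Zfp809 (chr9:22043208-22043291, plus strand) is a KRAB protein that silences retroviruses in embryonic cells, Zfp263 (chr16:3748960-3749043, plus strand) is a SCAN protein, and Zfp281 (chr1:138522640-138522723, plus strand) has fingers only and acts in pluripotent cells. The fingers were searched for with 1 fixed spacing of these codons, which all 3 therefore share, and the bases between them differ.
Zfp809: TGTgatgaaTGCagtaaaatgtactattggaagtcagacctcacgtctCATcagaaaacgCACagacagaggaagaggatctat
Zfp263: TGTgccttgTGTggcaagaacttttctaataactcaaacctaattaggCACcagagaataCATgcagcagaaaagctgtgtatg
Zfp281: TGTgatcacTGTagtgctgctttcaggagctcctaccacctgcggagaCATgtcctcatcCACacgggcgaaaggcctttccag

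Promoters are shown for the LPS-raised members Zfp800, Zfp263 and Zfp281, for Zfp467, which fell with JQ1, and for Zfp422, which rose with JQ1 under LPS. Each is the 250 bases before a transcription start in RefSeq (GRCm38.p6), at chr6:28398006-28398255, minus strand for Zfp800, chr16:3743849-3744098, plus strand for Zfp263, chr1:136624651-136624900, plus strand for Zfp281, chr6:48445091-48445340, minus strand for Zfp467 and chr6:116628702-116628951, minus strand for Zfp422. Capitals mark matches on either strand to a loose form of the site of NF-kB, which LPS activates: the letters GGG and CC with 5 bases of any kind between them. TGANTCA (AP-1) and CACGTG (E-box) were searched too and had no match in these 5.
Zfp800: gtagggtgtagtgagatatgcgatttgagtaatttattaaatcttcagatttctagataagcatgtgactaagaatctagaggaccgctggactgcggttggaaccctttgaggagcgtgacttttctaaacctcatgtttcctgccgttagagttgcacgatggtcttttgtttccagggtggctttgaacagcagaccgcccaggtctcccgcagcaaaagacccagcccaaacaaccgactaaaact
Zfp263: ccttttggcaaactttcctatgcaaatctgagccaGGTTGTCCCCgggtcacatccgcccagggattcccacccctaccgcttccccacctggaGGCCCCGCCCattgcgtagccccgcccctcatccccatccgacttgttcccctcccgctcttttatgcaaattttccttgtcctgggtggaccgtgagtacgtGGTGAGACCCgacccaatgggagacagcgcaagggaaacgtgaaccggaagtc
Zfp281: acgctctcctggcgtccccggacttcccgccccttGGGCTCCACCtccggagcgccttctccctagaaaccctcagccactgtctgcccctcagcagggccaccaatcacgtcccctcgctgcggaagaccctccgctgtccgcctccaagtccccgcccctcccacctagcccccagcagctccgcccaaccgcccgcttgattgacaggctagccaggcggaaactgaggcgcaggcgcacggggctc
Zfp467: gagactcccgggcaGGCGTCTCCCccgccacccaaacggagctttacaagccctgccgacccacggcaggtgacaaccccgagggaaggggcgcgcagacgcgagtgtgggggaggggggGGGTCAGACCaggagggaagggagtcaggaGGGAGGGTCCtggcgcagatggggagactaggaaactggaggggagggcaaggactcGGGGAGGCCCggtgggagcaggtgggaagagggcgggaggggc
Zfp422: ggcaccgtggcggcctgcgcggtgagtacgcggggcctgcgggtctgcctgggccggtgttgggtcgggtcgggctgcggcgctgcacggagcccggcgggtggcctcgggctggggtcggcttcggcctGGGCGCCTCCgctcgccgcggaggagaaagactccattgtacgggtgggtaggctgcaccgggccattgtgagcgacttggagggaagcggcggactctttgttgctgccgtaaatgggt

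These NF-kB letters were in 45.8% of all 32851 promoters of this length and in 63.6% of the 154 promoters of the 123 members in the table. They were in 62.2% of the 45 promoters of members that were higher with LPS and in 66.7% of the 72 of members that were lower. The TGANTCA letters were in 6.75% of all promoters and 3.9% of those of members, and the CACGTG letters in 6.02% and 3.9%. A match is a description of the letters only. The Zfp800 stretch shown had no NF-kB match, whereas a second RefSeq start of that gene had 3, and the single promoter of Zfp658 had none.

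The 18 libraries held between 6781952 and 28289498 expected counts. The 3rd LPS library and the 3rd LPS + IL-10 library, which carry the same replicate number, stood apart from the other libraries of their groups: the chi-square per degree of freedom of their counts was 26.1 to 30.5 against those libraries and 4.14 to 11.2 for all other pairs within groups. Of 11 macrophage markers 10 were found, all above 1 TPM on average, and their summed level was 15721 to 29728 TPM. All 4 dendritic cell and all 4 mast cell markers and all 3 erythroid markers averaged under 1 TPM. The summed levels were 7.46 to 84.2 TPM for 7 neutrophil markers, with Ly6g, Elane, Mpo and Camp at or under 1 TPM, 0.1 to 5.13 TPM for 4 B cell, 1.83 to 8.76 TPM for 5 T cell and 1.90 to 9.63 TPM for 4 fibroblast markers. Il10 itself had normalised counts of 37, 27.1 and 33.5 in Unstimulated and 53.7, 61 and 74.9 in LPS libraries, and a count for a whole gene does not show which part of the disrupted gene was read. In bulk RNA fewer cells of a type and less RNA per cell cannot be told apart.

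The members were expressed at low levels. Their mean TPM over all libraries had a median of 7.70, against 19.7 for the 9266 genes of any kind with at least 3 TPM, and 16 members reached 20 TPM. The highest were Zfp207 with 87.1 TPM, a microtubule-binding protein that loads a checkpoint protein onto kinetochores, Zfp710 with 86.9 TPM, Zfp385a with 71.1 TPM, a cofactor of p53 that also binds RNA, Zfp263 with 64.1 TPM and Zfp703 with 51.5 TPM, a corepressor that binds Groucho proteins. Just inside the threshold were Zfp943 at 3.05, Zfp748 at 3.04 and Zfp729b at 3.02 TPM, and just outside it Zfp53 at 2.99, Zfp280b at 2.94 and Zfp719 at 2.89 TPM. Added up, the members reached 2003 to 2120 TPM in Unstimulated, 1787 to 1911 in JQ1, 2157 to 2297 in IL-10, 1348 to 1539 in LPS, 1497 to 1570 in LPS + JQ1 and 1452 to 1678 in LPS + IL-10 libraries. On this scale, on which each library adds up to the same total, no library with LPS reached the lowest library without it.

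**Figure D1:**
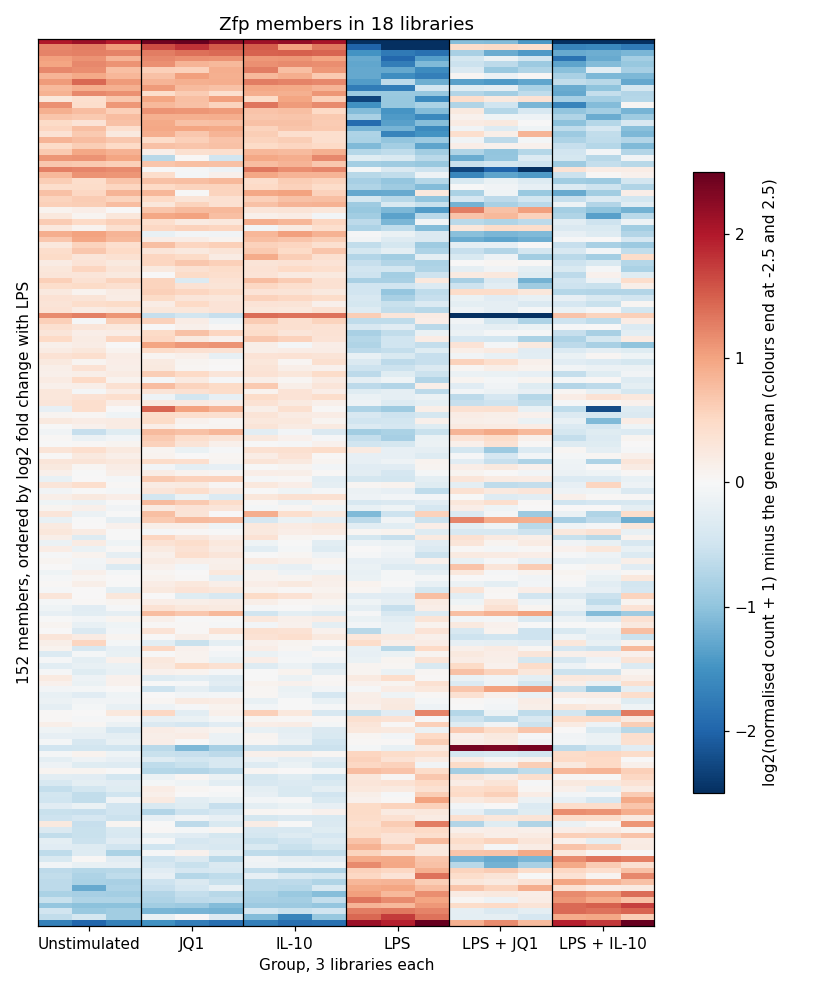
Heat map of the 152 members (rows, ordered by log2 fold change with LPS) in the 18 libraries (columns, 3 per group); colour is log2(normalised count + 1) minus the mean of the gene, and the colours end at -2.5 and 2.5. The columns with LPS are bluer at the top and redder at the bottom than those without it.

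LPS changed most members, and over all members more fell than rose. Against Unstimulated, 36 of 152 members were higher and 76 were lower with LPS (DESeq2 Wald test, adjusted p under 0.05, here and below unless another test is named), that is 23.7% and 50%. Of all 14591 genes tested 32.4% were higher and 33.8% were lower, and of all genes with at least 3 TPM 43.6% and 36.9%. The median log2 fold change of the members was -0.30 and that of all genes -0.07, and over the 3 same-numbered pairs of libraries the median of the members had an SD of 0.10. Of the 93 members at 3 TPM or more in every group 32 were higher and 33 lower (median -0.07), and of the 59 below that in some group 4 were higher and 43 lower (median -1.05). This split follows the group levels themselves, and the members that fell below the threshold are in its second part by construction. Falls made up a larger share of the weakly expressed members, as of weakly expressed genes of all kinds: 54 of the 97 members under 10 TPM fell (55.7%, median -0.46), beside 52.2% of all genes between 3 and 10 TPM (median -0.45). Of the 55 members at 10 TPM or more 22 rose and 22 fell, 40% each, whereas of all genes at that level 51.1% rose and 30.9% fell. The split depended on the scaling. With library totals as size factors 9 members were higher and 124 lower, beside 14.9% and 59.3% of all genes, and the median of all genes moved to -1.01. On log2(TPM + 1) 11 were higher and 119 lower, beside 19.9% and 65.9% of all genes, with a median of all genes of -0.63. Without the 3rd LPS and 3rd LPS + IL-10 libraries 33 members were higher and 80 lower. The share of counts in Rn45s was 9.13 to 11.02% in Unstimulated and 5.54 to 7.07% in LPS libraries, and the summed levels were 24087 to 25917 and 15721 to 17158 TPM for the macrophage markers and 6.83 to 8.1 and 2.83 to 3.84 TPM for the T cell markers. They were 2.34 to 5.13 and 0.89 to 1.53 TPM for B cell and 0.11 to 0.95 and 2.08 to 2.82 TPM for dendritic cell markers. Mast cell markers were at 0.04 to 0.15 and 0.19 to 0.52 TPM, and erythroid markers at 0 to 0.25 and 0.29 to 1.23 TPM. None of these overlapped between the groups, and their part in the result was not tested. Relative to the median of all genes the members lay at -0.22 with median-of-ratios size factors, -0.21 with library totals and -0.30 on TPM.

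Among the members that rose with LPS, Zfp800 rose most. Its normalised counts were 211, 174 and 213 in Unstimulated and 3019, 2642 and 4305 in LPS libraries, a log2 fold change of 4.05 (SE 0.21, adjusted p = 8.31e-84). All LPS libraries were above all Unstimulated ones, and the 3rd was the highest of them. The Zfp800 gene (chr6:28189931-28348005 on mm9, minus strand) overlaps exons of 6530409C15Rik on the other strand, and under the default settings of RSEM strand is not used, so reads of the pair could be mixed. The same holds for 27 members in all, among them Zfp106, Zfp219, Zfp346, Zfp608, Zfp652, Zfp672, Zfp704, Zfp777, Zfp784 and Zfp866. Zfp263, a SCAN protein known to repress genes of heparan sulphate synthesis, had 1132, 827 and 866 normalised counts in Unstimulated and 3843, 3923 and 3762 in LPS libraries, a log2 fold change of 2.02 (SE 0.09, adjusted p = 4.87e-110). Its LPS libraries were within a narrow range and far above the Unstimulated ones. Zfp281 had 486, 465 and 464 in Unstimulated and 1712, 1668 and 2006 in LPS libraries, a log2 fold change of 1.93 (SE 0.10, adjusted p = 4.57e-85). Zfp658, a KRAB protein with 21 fingers found, had 64, 72.7 and 53.6 in Unstimulated and 270.1, 335 and 254 in LPS libraries, a log2 fold change of 2.21 (SE 0.19, adjusted p = 1.06e-31). The groups did not overlap in any of these 4 genes.

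Further members known for other functions also rose. Zfp131, a BTB protein, rose by a log2 fold change of 1.82, Zfp382, a KRAB protein, by 1.73, Zfp207 by 1.35 and Zfp385a by 1.13, which was 0.20 and not called with library totals. Zfp143, an activator that binds promoters of small nuclear RNA genes and many others, rose by 0.91, but was at -0.02 with library totals as size factors. Zfp710 rose by 0.61 with median-of-ratios size factors and was at -0.31 and -0.17 with library totals and on log2(TPM + 1). In all, 13 members rose by more than 1 on the log2 scale and 37 fell by more than 1. Changes of this size were not counted over all genes.

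Zfp704 fell most with LPS among members averaging 100 or more normalised counts. Its normalised counts were 1319.9, 1441 and 1277 in Unstimulated and 55.1, 50.7 and 38.1 in LPS libraries, a log2 fold change of -4.81 (SE 0.16, adjusted p = 8.3e-194). Every LPS library was far below every Unstimulated one. Zfp652, a repressor that works with Eto family corepressors, had 587, 600.4 and 587 in Unstimulated and 87.7, 72.4 and 67.5 in LPS libraries, a log2 fold change of -2.97 (SE 0.13, adjusted p = 8.42e-110). Zfp369, which holds both KRAB and SCAN patterns, had 204, 219.9 and 181 in Unstimulated and 41, 24.8 and 38.1 in LPS libraries, a log2 fold change of -2.56 (SE 0.20, adjusted p = 2.69e-35). Zfp266, a KRAB protein, had 284, 329.8 and 312 in Unstimulated and 58, 42.4 and 66.3 in LPS libraries, a log2 fold change of -2.48 (SE 0.17, adjusted p = 1.33e-47). None of these groups overlapped. Smaller falls included Zfp809, the retrovirus silencer, with -1.19, Zfp703 with -1.24, Zfp217, a corepressor subunit, with -0.88, and Zfp318, which controls the splicing of immunoglobulin D transcripts in B cells, with -0.88.

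With LPS the KRAB members had a lower median than the others, which is given as a description. Of 39 KRAB members 7 were higher and 23 lower (17.9% and 59%) with a median log2 fold change of -0.54, and of 101 members without a KRAB pattern 28 were higher and 47 lower (27.7% and 46.5%) with a median of -0.21, beside 32.4% and 33.8% of all genes. Of all genes between 3 and 10 TPM 24.4% were higher and 52.2% lower with a median of -0.45. Within the 3 mice the KRAB median minus the other median was -0.46, -0.39 and -0.23. The KRAB members also had lower levels, with a median of 4.61 TPM against 9.74 TPM, and the part of level in the difference between these medians was not tested. With 1 mismatch allowed in the KRAB pattern 45 members held it and their median was again -0.54.

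**Figure D2:**
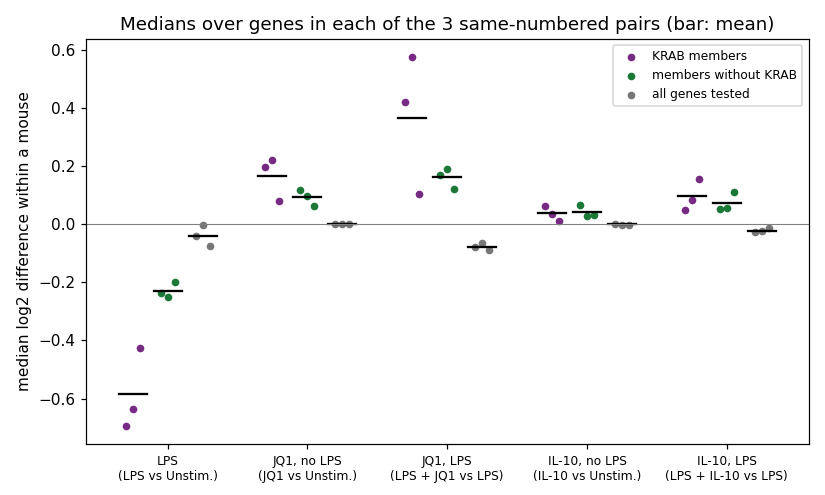
Median log2 difference over the genes of a list within each of the 3 same-numbered pairs of libraries (points; bar, their mean) for 39 KRAB members, 101 members without KRAB and all genes tested, in 5 comparisons. With LPS the 3 KRAB points lie below the 3 points of the other members, and with JQ1 during LPS 2 of the 3 mice have the KRAB point above that of the other members.

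Values in LPS are given for 2 runs of neighbouring members. On chromosome 6 of mm9, 6 members lie between positions 47785660 and 48395824; they were picked by place after their values had been seen. Of these Zfp398 was at -4.20 with LPS, Zfp282 at -1.60, Zfp212 at 0.91, Zfp777 at 0.13 (adjusted p = 0.418), Zfp746 at -0.16 (adjusted p = 0.213) and Zfp467 at -0.80, so that 3 passed the test as lower and 1 as higher. With library totals as size factors Zfp212 was at -0.02 and Zfp777 at -0.80. Zfp398 and Zfp282 are 8947 bases apart and both fell, but the fold change of Zfp398 rests on 11.3, 3.10 and 4.91 normalised counts in LPS libraries, against 115, 120.1 and 102 in Unstimulated ones. On chromosome 7 a run of 6 members between positions 4866819 and 5005324, picked in the same way, had Zfp628 at 0.98, Zfp579 at -2.47, Zfp524 at -1.57, Zfp865 at -0.21, Zfp784 at -0.71 and Zfp580 at -1.55, with 1 called higher and 4 lower. Of all genes 32.4% were higher and 33.8% lower, and these few members are not read as differing from that. With library totals Zfp628 was at 0.05 and not called, and Zfp746 and Zfp865 were called lower, so that none of these 12 members was called higher under that scaling. Under it 14.9% of all genes were higher and 59.3% lower. In all, 40 members lay within 100000 bases of another member, and chromosome 7 held 34 of the 140 placed members.

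**Figure D3:**
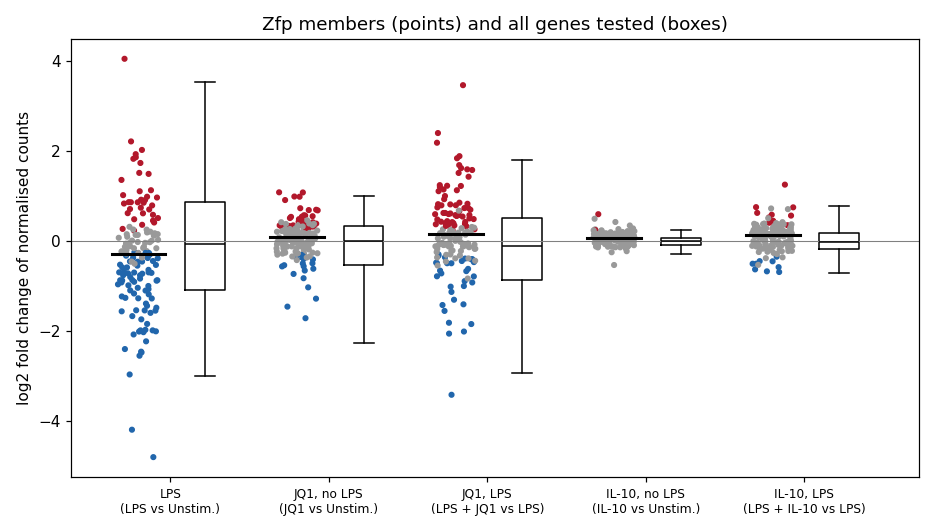
Log2 fold change of the 152 members (points; red, higher and blue, lower at adjusted p under 0.05; bar, their median) beside all genes tested (box, quartiles and median; whiskers, 5th to 95th percentile) in 5 comparisons. The member bar is below the box median with LPS and above it with JQ1 under LPS, and few points are coloured in both IL-10 comparisons.

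Without LPS, JQ1 changed fewer members. Against Unstimulated, 37 of 152 members were higher and 19 lower with JQ1 (24.3% and 12.5%), where 21.4% of all genes were higher and 23.2% lower. Of all genes with at least 3 TPM 28.9% were higher and 25.3% lower. The member median was 0.08 with an SD of 0.04 over the pairs, and that of all genes was 0.00. With library totals as size factors 15 members were higher and 41 lower, beside 11.3% and 31% of all genes, and the median of all genes was -0.18. Without the 3rd LPS and 3rd LPS + IL-10 libraries, which are in neither group compared, 41 were higher and 24 lower. The count fell when a replicate was left out, in fits that held fewer libraries. It was 17 higher and 11 lower without replicate 1, 23 and 12 without replicate 2, and 29 and 13 without replicate 3. None of the called members took the other sign in these fits. The summed level of 4 proliferation markers was 46.4 to 61.6 TPM in Unstimulated and 18.2 to 20.1 TPM in JQ1 libraries, and 56.4 to 75.5 TPM in LPS and 10.6 to 11.4 TPM in LPS + JQ1 libraries, and its part in the JQ1 results was not tested. Between Unstimulated and JQ1 libraries the summed markers also moved without overlap for B cells, from 2.34 to 5.13 TPM to 0.2 to 0.5 TPM, for T cells, from 6.83 to 8.1 TPM to 3.06 to 3.92 TPM, for neutrophils, from 23.2 to 84.2 TPM to 7.46 to 16.9 TPM, and for macrophages, from 24087 to 25917 TPM to 29547 to 29728 TPM. Mast cell markers moved from 0.04 to 0.15 TPM to 0.19 to 0.29 TPM. The part of these markers was not tested.

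The largest fall was that of Zfp467, a factor that promotes fat cell over bone cell formation in marrow stroma. It had 481, 504 and 456 normalised counts in Unstimulated and 142, 153 and 141 in JQ1 libraries, a log2 fold change of -1.72 (SE 0.11, adjusted p = 1.08e-51). Zfp608, a repressor of Rag genes in thymocytes, had 324, 311 and 306 in Unstimulated and 132, 131 and 123 in JQ1 libraries, a log2 fold change of -1.29 (SE 0.12, adjusted p = 7.22e-25). Zfp219 was at -1.04 and Zfp710 at -0.74 on the log2 scale. The groups did not overlap in these genes.

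Rises with JQ1 were smaller. Zfp672 had 139, 98.1 and 119 normalised counts in Unstimulated and 257, 245 and 265 in JQ1 libraries, a log2 fold change of 1.08 (SE 0.13, adjusted p = 1.99e-15). Zfp346, which binds double-stranded RNA, had 129, 125 and 128 in Unstimulated and 256, 239.5 and 262 in JQ1 libraries, a log2 fold change of 0.98 (SE 0.14, adjusted p = 1.79e-11). Zfp523 rose by 0.91, Zfp866, a KRAB protein, by 0.72 and Zfp809 by 0.69. Only 2 members rose and 4 fell by more than 1, and such changes were not counted over all genes.

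During LPS, JQ1 changed 92 members, of which 60 were higher and 32 lower. Against LPS alone 39.5% of members were higher and 21.1% lower with LPS + JQ1, where 24.5% of all genes were higher and 33.1% lower. Of all genes with at least 3 TPM 31% were higher and 40.6% lower. The member median was 0.15 with an SD of 0.14 over the pairs, and that of all genes was -0.11, a shift relative to which the members lay at 0.26. They lay at 0.28 with library totals, which gave 88 higher and 19 lower, and at 0.20 on log2(TPM + 1), which gave 79 higher and 20 lower. Of all genes 37.9% were higher and 20.5% lower with library totals, and 41% and 25.2% on log2(TPM + 1). Without the 3rd LPS and 3rd LPS + IL-10 libraries the counts were again 60 and 32. The summed markers were 15721 to 17158 TPM in LPS and 20231 to 23232 TPM in LPS + JQ1 libraries for macrophages, and 0.89 to 1.53 and 0.1 to 0.68 TPM for B cells, and the Rn45s share was 5.54 to 7.07% and 7.11 to 7.92%, and their part was not tested. The counts differed between subsets of the members. Of the 93 members at 3 TPM or more in every group 32 were higher and 25 lower (median -0.05), 28 of the other 59 were higher and 7 lower (median 0.31), and of the 55 at 10 TPM or more 19 were higher and 20 lower (median -0.06). The split into 93 and 59 follows the group levels themselves. Members under 3 TPM in LPS, the group compared against, are among the 59 by construction, so this split is no separate result. Of the 97 members under 10 TPM 42.3% were higher, beside 37.6% of all genes between 3 and 10 TPM, and 12.4% were lower, beside 29.7%.

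Zfp422 and Zfp703 rose most among members with at least 100 counts. Zfp422 had 213, 192 and 253 normalised counts in LPS and 1168, 1128 and 1163 in LPS + JQ1 libraries, a log2 fold change of 2.40 (SE 0.11, adjusted p = 2.24e-99). All LPS + JQ1 libraries lay within a narrow range far above every other group. The expected count of Zfp422 had a fraction in 15 of the 18 libraries, and such counts divide reads that match several genes. Zfp703 had 594, 525 and 437 in LPS and 2779, 1921 and 2351 in LPS + JQ1 libraries, a log2 fold change of 2.18 (SE 0.13, adjusted p = 8.82e-64). Zfp809 had 53.7, 38.3 and 61.4 in LPS and 163, 175 and 148 in LPS + JQ1 libraries, a log2 fold change of 1.68 (SE 0.19, adjusted p = 6.52e-18). Zfp672 rose by 1.62, as it had without LPS. Zfp398, named after its values had been seen, had 66.3, 68.5 and 65.2 in LPS + JQ1 libraries, a log2 fold change of 3.46 (SE 0.41, adjusted p = 3.37e-16) against LPS.

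Zfp467 fell again, and further than any other member. It had 324, 259.5 and 243 normalised counts in LPS and 25.4, 20 and 32 in LPS + JQ1 libraries, a log2 fold change of -3.42 (SE 0.20, adjusted p = 1.04e-63). Zfp324, a KRAB protein, had 325, 328 and 274 in LPS and 75.1, 70.6 and 76.3 in LPS + JQ1 libraries, a log2 fold change of -2.06 (SE 0.15, adjusted p = 7.55e-41). Zfp608 had 129, 103 and 93.3 in LPS and 26.5, 32.6 and 19.7 in LPS + JQ1 libraries, a log2 fold change of -2.02 (SE 0.21, adjusted p = 1.13e-20). In each of these genes every LPS + JQ1 library was below every LPS library. Zfp385a had 2946, 2536 and 2172 in LPS and 805, 571 and 746 in LPS + JQ1 libraries, a log2 fold change of -1.85 (SE 0.14, adjusted p = 3.84e-37). The LPS-raised members Zfp263 and Zfp800 and the highly expressed Zfp710 were at -1.56, -1.31 and -1.41.

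**Figure D4:**
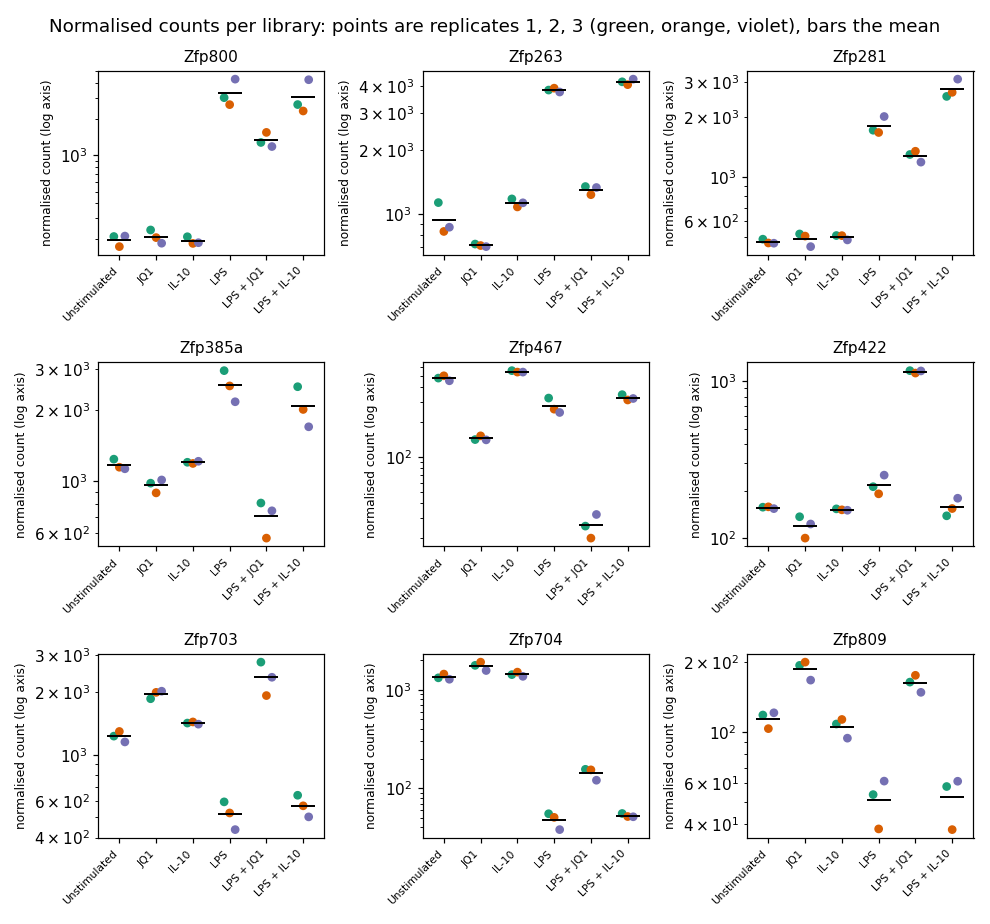
Normalised counts (log axis) of 9 members in each library of the 6 groups; points are replicates 1, 2 and 3 in green, orange and violet, and the bar is their mean. Zfp467 and Zfp422 have their lowest and highest values in LPS + JQ1 libraries, and Zfp704 is low in all 9 libraries with LPS.

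The comparisons of LPS with Unstimulated and of LPS + JQ1 with LPS share the LPS libraries, so their values are given side by side and not related to each other. Zfp800 was at 4.05 with LPS and -1.31 with JQ1 during LPS, Zfp263 at 2.02 and -1.56, Zfp704 at -4.81 and 1.59, Zfp703 at -1.24 and 2.18, and Zfp809 at -1.19 and 1.68.

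LPS after JQ1 was compared in libraries that the first comparison did not use, though from the same mice. Against JQ1, 29 members were higher and 68 lower with LPS + JQ1 (19.1% and 44.7%), where 28.5% of all genes were higher and 32% lower. Of all genes with at least 3 TPM 36.8% were higher and 34% lower. The member median was -0.22 beside -0.08 for all genes. With library totals 12 members were higher and 104 lower, beside 15.9% and 46.1% of all genes. Of the members called in the comparison without JQ1, 78 were called in the same direction and 6 in the opposite one. This overlap was not counted over all genes, so it is not read as a trait of the members. Zfp800 rose by 2.67 and Zfp422 by 3.25, and Zfp467 was at -2.51. Zfp703 was at 0.27 (SE 0.12, adjusted p = 0.049), higher in 2 of 3 pairs, and at -0.11 and -0.02 with library totals and on log2(TPM + 1).

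The interaction of LPS and JQ1 tests whether the response to JQ1 differed with and without LPS. It was positive in 36 members and negative in 24 (23.7% and 15.8%), where it was positive in 16.8% and negative in 22.6% of all genes. Among all genes with at least 3 TPM it was positive in 19.6% and negative in 29.9%. Of the 93 members at 3 TPM or more in every group 14 were positive and 19 negative (median -0.07), and 22 of the other 59 were positive and 5 negative (median 0.36), so the direction of the excess depended on the members counted. This split follows the levels of groups that enter the interaction, so it is no separate result. The largest by the rule for named genes were 2.77 (SE 0.17, adjusted p = 6.69e-55) for Zfp422, 1.50 (SE 0.18, adjusted p = 6.3e-16) for Zfp703 and 1.49 (SE 0.21, adjusted p = 1.84e-11) for Zfp316 above 0, and -2.33 (SE 0.27, adjusted p = 1.51e-16) for Zfp658, -1.78 (SE 0.21, adjusted p = 2.02e-16) for Zfp324 and -1.70 (SE 0.23, adjusted p = 2.04e-12) for Zfp467 below 0. The rule took only members with the same sign in the 3 mice, so that agreement is no separate result. With edgeR 46 were positive and 17 negative, beside 23.6% and 19.7% of all genes in that fit. With library totals 85 were positive and 8 negative, beside 43.7% and 7.44% of all genes, and the median of all genes moved from -0.05 to 0.51. The number of calls was 34 without replicate 1, 39 without replicate 2 and 40 without replicate 3, against 60 with all libraries, and 57 without the 3rd LPS and 3rd LPS + IL-10 libraries.

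**Figure D5:**
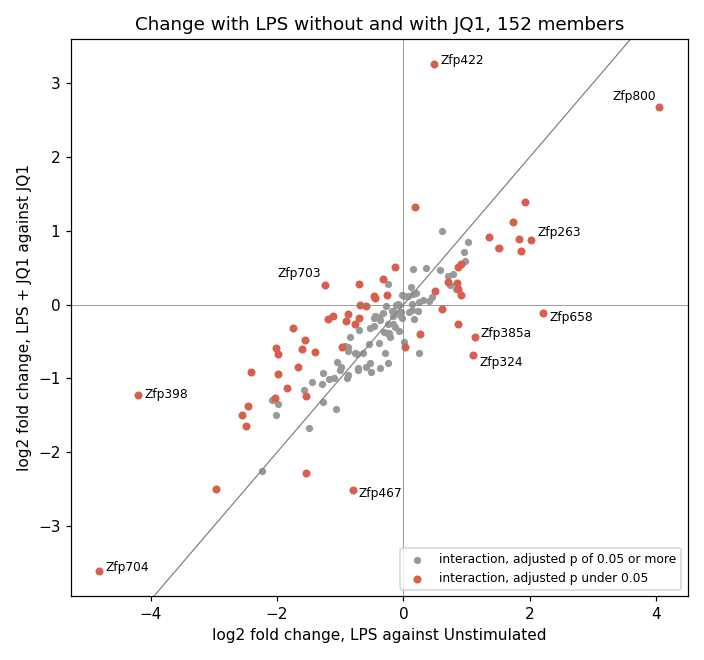
Log2 fold change with LPS without JQ1 (x axis, LPS against Unstimulated) and with JQ1 (y axis, LPS + JQ1 against JQ1) of the 152 members; the diagonal marks equal change and red points have an interaction at adjusted p under 0.05. Zfp422 lies far above the diagonal, and Zfp658, Zfp324, Zfp385a and Zfp467 lie below it.

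IL-10 changed few members. Without LPS 2 of 149 members with an adjusted p were higher and 0 lower (1.34% and 0%), where 2.46% of all genes were higher and 1.46% lower, and 8 members had an unadjusted p under 0.05. Both had small changes: Zfp821 had 120.3, 118 and 127 normalised counts in Unstimulated and 184, 179.8 and 190.2 in IL-10 libraries, a log2 fold change of 0.59 (SE 0.13, adjusted p = 0.000391), and Zfp106, an RNA-binding protein needed by motor neurons, rose by 0.24. With edgeR 1 member was called, as higher, where 1.28% of all genes were higher and 0.596% lower. Without replicates 2 or 3 none was called, and without replicate 1 there was 1, which was neither of these genes.

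During LPS 10 members were higher and 9 lower with IL-10 (6.58% and 5.92%), where 7.74% of all genes were higher and 8.09% lower. Of all genes with at least 3 TPM 9.5% were higher and 9.83% lower. Zfp821 rose here too: it had 247, 207 and 214 normalised counts in LPS and 397, 388 and 335 in LPS + IL-10 libraries, a log2 fold change of 0.74 (SE 0.12, adjusted p = 3.48e-08). Zfp281 had 1712, 1668 and 2006 in LPS and 2531, 2653 and 3089.8 in LPS + IL-10 libraries, a log2 fold change of 0.62 (SE 0.09, adjusted p = 6.73e-10). Zfp608 rose by 0.56 and Zfp526 by 0.58. Of the KRAB members 4 were higher and 4 lower, with a median of 0.17 over all 39, and the 4 lower ones were Zfp658 at -0.69, Zfp949 at -0.68, Zfp382 at -0.64 and Zfp952 at -0.59. Zfp398 was at 1.25 (SE 0.47, adjusted p = 0.047), from few counts. The number of calls was 5 to 7 without any 1 replicate, 11 without the 3rd LPS and the 3rd LPS + IL-10 library, and 5 when only these groups were fitted, where the calls of Zfp398, Zfp526, Zfp608, Zfp949 and Zfp952 were lost. With library totals 26 were higher and 6 lower, beside 12.3% and 4.98% of all genes.

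The genes through which KRAB proteins act were listed beside the members, and 33 of them were found. With LPS 11 were higher and 12 lower (33.3% and 36.4%, median -0.12), beside 32.4% and 33.8% of all genes. With JQ1 during LPS 10 were higher and 17 lower (30.3% and 51.5%, median -0.31), beside 24.5% and 33.1% of all genes and 31% and 40.6% of genes with at least 3 TPM. Only some genes of the list are named below. Most of those named for JQ1 during LPS rose, whereas more genes of the list fell than rose, so the named genes do not stand for the list. Trim28, the corepressor itself, was at -0.12 with LPS (adjusted p = 0.252), at -1.05 and called with library totals, and rose by 0.51 with JQ1 without LPS and 0.58 with JQ1 during LPS. Setdb1 was at -1.13 with LPS and rose by 0.51 with JQ1 during LPS. Its cofactor Atf7ip had -1.63 and 1.50, and the methyltransferase Ehmt1 rose by 1.32 with JQ1 during LPS. Dnmt1, the maintenance DNA methyltransferase, was at -2.64 with LPS, whereas Daxx, a histone chaperone partner, was at 4.61, Morc3 at 2.20 and Hdac1 at 1.78. Chd3 was at -1.91 and -2.38 with JQ1 without and during LPS. With IL-10 without LPS 0 of 31 were higher and 1 lower (0% and 3.23%, beside 2.46% and 1.46% of all genes), and during LPS 1 of 32 was higher and 3 lower (3.12% and 9.38%, beside 7.74% and 8.09%).

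Other zinc finger families were counted in the same way, and no difference between families was tested. With LPS 32.4% of all genes were higher and 33.8% lower, and 43.6% and 36.9% of all genes with at least 3 TPM. Of 31 Zbtb genes with at least 3 TPM 7 were higher and 17 lower with LPS (median -0.30), of 12 Zscan and Zkscan genes 1 was higher and 8 lower (median -0.50), and of 15 Zc3h genes, whose CCCH fingers bind RNA, 11 were higher and 3 lower (median 0.56). With JQ1 during LPS the medians were -0.09, 0.35 and -0.36. Neither of 2 other genes with similar symbols was higher with LPS. The symbols left out of the members also moved: Zfp36, a CCCH protein that destabilises cytokine RNAs, was at 2.34 with LPS and 1.11 with JQ1 during LPS. Zfp395 had 896, 993 and 891 normalised counts in Unstimulated and 2.83, 6.20 and 2.46 in LPS libraries.

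Of the 152 members, 20 were called in none of the 5 comparisons of JQ1, IL-10 and LPS with Unstimulated or LPS cells, and 132 in at least 1. The matching shares of all genes were not counted, so these numbers describe the members only.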

How the data were processed

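RNA of 18 libraries (3 per group) was sequenced by the authors after ribosomal RNA depletion. Per the study's methods and the submitters' processing notes, reads were aligned to mm9 with STAR and quantified with RSEM (v1.2.31) with default parameters. The deposited values used here were expected counts, which estimate reads per gene and divide reads that match several genes, and TPM, which RSEM scales to transcript length and to the same total in each library. FPKM values were not used. Of the genes, 5.40 to 6.63% per library had an expected count with a fraction, and counts were rounded. A fraction was present in at least 15 of the 18 libraries for 22 members, among them Zfp422 and Zfp219. Libraries held 6781952 to 28289498 counts, so 3 counts, taken as the detection floor, were worth 0.106 to 0.442 CPM, and the ribosomal RNA gene Rn45s took 9.11 to 12.5% of counts in libraries without LPS and 5.54 to 7.92% in those with LPS. Intervals and floors of this kind cover counting error only.

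All genes and all 18 libraries were fitted with DESeq2 (v1.42.0, R v4.3.3), with median-of-ratios size factors, a Wald test and Benjamini-Hochberg adjusted p under 0.05. Normalised counts are counts divided by these size factors. Alternatives were edgeR (v4.0.16), library totals as size factors, limma (v3.58.1) on log2(TPM + 1) and log2(TPM + 0.1), a filter of 10 counts in 3 libraries, no independent filtering, replicate or lane as a term, only the groups compared, each replicate left out, and other member thresholds. Fold changes on log2(TPM + 1) understate the change of low genes. Leaving out the 3rd LPS and 3rd LPS + IL-10 libraries was chosen after seeing the data. The same replicate number was taken to mark the same mouse, which the titles do not state. Replicate 2 was in lane 7 in the groups without LPS and in lane 8 in those with LPS. Differences with LPS within that pair therefore also cross lanes. Deviations of same-numbered libraries from their group means correlated at 0.10 to 0.13 for LPS and Unstimulated, 0.07 to 0.19 for JQ1 and Unstimulated, 0.05 to 0.27 for IL-10 and Unstimulated, -0.11 to 0.05 for LPS + JQ1 and LPS, 0.19 to 0.42 for LPS + IL-10 and LPS, and 0.08 to 0.09 for LPS + JQ1 and JQ1.

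The members and lists were chosen with earlier results of these data known. Named members were the 4 largest called rises and falls of each comparison (3 of the interaction) that averaged 100 or more normalised counts and moved one way in the 3 pairs, the 5 highest by TPM, the 3 on either side of the threshold, and members with a known role. Protein classes came from translated GENCODE vM1 coding sequences rather than from the RefSeq proteins first planned, which were not used here. On simulated data for LPS against Unstimulated with 11490 genes fitted, DESeq2 recovered 97.2% of changes of 1 and 100% of changes of 2 on the log2 scale at mean counts of at least 100, and 39.3% and 96.7% below that. The simulation gave all genes the same spread, no difference between mice, and few changed genes with balanced rises and falls. The data differ from this, so these rates need not hold for them. Of the members, 17 had a mean normalised count below 100.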

Additional observations from a re-analysis of the deposited data

Results flagged for a closer look

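The response to JQ1 differed with and without LPS, by the test of the interaction itself, in the 6 members named for it. They were chosen by that same test, as the largest called values in each direction. That they pass it is therefore no separate result. It was 2.77 (SE 0.17, adjusted p = 6.69e-55) for Zfp422, 1.50 (SE 0.18, adjusted p = 6.3e-16) for Zfp703 and 1.49 (SE 0.21, adjusted p = 1.84e-11) for Zfp316, which were relatively higher with JQ1 under LPS. It was -2.33 (SE 0.27, adjusted p = 1.51e-16) for Zfp658, -1.78 (SE 0.21, adjusted p = 2.02e-16) for Zfp324 and -1.70 (SE 0.23, adjusted p = 2.04e-12) for Zfp467, which were relatively lower (DESeq2).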

How the results depend on the processing

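The share of members called was 73.7% with LPS, 60.5% with JQ1 during LPS and 63.8% with LPS after JQ1, and it stayed within 1.5 times these values under all alternatives run. It was 36.8% with JQ1 without LPS and 39.5% for the interaction, which library totals moved to 61.2%. With IL-10 it was 1.34% without LPS and 12.5% during LPS. Without LPS it moved to 0.658% with edgeR and with limma at either pseudocount, to 3.64% for members of at least 10 TPM and to 2.15% for those of at least 3 TPM in every group. During LPS it moved to 21.1% with library totals and with limma on log2(TPM + 0.1), to 3.29% with only the groups compared and to 7.24% without the 3rd LPS and 3rd LPS + IL-10 libraries. Without those libraries the shares were 74.3% with LPS, 42.8% with JQ1, 1.32% with IL-10, 60.5% with JQ1 during LPS, 64.5% with LPS after JQ1 and 37.5% for the interaction. With each replicate left out in turn the shares were 61.2 to 71.1% with LPS, 18.4 to 27.6% with JQ1, 0 to 0.735% with IL-10, 44.7 to 53.9% with JQ1 during LPS, 3.29 to 4.61% with IL-10 during LPS, 48 to 56.6% with LPS after JQ1 and 22.4 to 26.3% for the interaction. Each such fit held fewer libraries.

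With the replicate block the shares were 73.7, 36.8, 1.97, 61.2, 14.5, 63.2 and 40.1% in the order LPS, JQ1, IL-10, JQ1 during LPS, IL-10 during LPS, LPS after JQ1 and interaction, and none of the 89 gene values reported changed its call.

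Directions turned in 5 of the 89 gene values, and the cause was not tested beyond the scaling that defines each alternative. Over all members turns were more common: of the 112 called with LPS, 21 took the other sign with library totals and 14 on log2(TPM + 1). Call and direction were kept by 85 and 87 of them. With LPS, Zfp143 was at -0.0171, Zfp212 at -0.0221, Zfp710 at -0.31 and Zfp777 at -0.80 with library totals, and Zfp710 at -0.17 and -0.17 and Zfp777 at -0.60 and -0.65 with limma on log2(TPM + 1) and log2(TPM + 0.1). With LPS after JQ1, Zfp703 was at -0.11, -0.0187 and -0.019 in the same order, and its call was also lost without independent filtering. The LPS calls of Zfp385a (0.20) and Zfp628 (0.05) were lost with library totals. The offset of the members from the median of all genes tested with LPS, -0.22, was -0.60 for a member threshold of 1 TPM and 0.08 for 10 TPM. The threshold was applied to the members and not to all genes. At 10 TPM or more the median was 0.0036 for members and 0.26 for all genes at that level. In the simulation, at mean counts under 100, DESeq2 recovered 39.3% of changes of 1 on the log2 scale. With the replicate block it recovered 35.7%, and edgeR and limma recovered 60.7% each. These rates need not hold for the data. What could be detected in weakly expressed members with 3 libraries per group was therefore not established.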
